A study of Mus musculus with 38 samples.

Results

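Livers of mice lacking c-Met in hepatocytes were compared with livers of Cre control mice at the earlier of 2 times after a carcinogen. The comparison covers every mouse whose label reads knockout or Cre control at 3 months, which gave 10 mice (5 knockouts and 5 controls) on 20 two-colour arrays, of 20 mice on 38 arrays in the whole series. The question was which liver genes and pathways differ when hepatocytes lack this receptor, and whether both dye orientations of the dye-swapped arrays show the same differences.

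Knockouts carried Alb-Cre +/- with Met Fl/Fl, in mice of strain 129SV/C57BL6. Controls carried Alb-Cre +/- without floxed Met, in mice of strain B6129, so genotype and strain label cannot be told apart. Every mouse was male, and all had one intraperitoneal dose of N-nitrosodiethylamine (DEN), 10 ug per g of body weight, at 14 days of age. The labels give an age of 12 weeks, which is less than 3 months after that dose, so the time since dosing is not settled, and the groups keep the label's name. The albumin promoter drives Cre mainly in hepatocytes. Each liver was hybridised against the same reference, RNA pooled from livers of wild-type B6129 males. The pool's mice were 12 weeks old and are not described as DEN-treated. Each group holds 5 animals per the series' design text.

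c-Met is the receptor tyrosine kinase for hepatocyte growth factor, a protein made mainly by non-parenchymal liver cells. Its activation signals through PI3 kinase with AKT and through RAS with ERK, pathways that hepatocytes use for survival, proliferation and, on the AKT side, for insulin's control of FOXO transcription factors. FOXO1 in the nucleus switches on Igfbp1 and G6pc, and insulin acting through AKT switches both off. Hepatocytes also differ by position, with Wnt signals setting a pericentral set of genes and a periportal set opposite to it. DEN is converted by pericentral cytochrome P450 enzymes into a DNA-alkylating agent.

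Values are log2 ratios of liver over reference, 1 per mouse, from an array with the liver in Cy5 and an array with the liver in Cy3, the latter multiplied by -1. A difference is the mean of the 5 knockouts minus the mean of the 5 controls, its error is the standard error from limma, and a gene is said to have risen or fallen where limma's Benjamini-Hochberg adjusted p was under 0.05. The numerator of the deposited ratio is not stated. Cy5 was taken as the likely numerator, and if Cy3 was, every higher here is a lower and the reverse. As ratios to liver RNA, these values do not give the level of a gene. The 15 hepatocyte markers had a median of 0.07 to 0.25 per knockout and 0.13 to 0.23 per control.

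Across all 36607 probes at 3 months, limma called 13 (0.0355%), 6 higher (0.0164%) and 7 lower (0.0191%) in knockouts. By the first-listed probe of each of 17501 genes it called 4 (0.0229%). Among the 13 called probes, 6 carry a gene symbol. Igfbp1, Acad9, H2-Bl and Cyp3a13 rose, and Ctsc and H2-D1 fell. The calls lie close to the threshold, with adjusted p = 0.0199 for Cyp3a13 and adjusted p = 0.0482 for the other 5 genes. At an unadjusted p under 0.001, the threshold of the series' text, 176 probes passed (0.481%), 33 higher (0.0901%) and 143 lower (0.391%), where 36.6 would be expected by chance. With quantile normalization of the arrays, 46 passed, 27 higher and 19 lower. At an unadjusted p under 0.05, 2915 probes passed (7.96%). When the 10 mice were fitted without the 5-month mice, limma called 0, 85 probes passed 0.001 and 2198 passed 0.05. It also called 0 without control 2 and without knockout 1, with 192 and 130 probes at 0.001.

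Met was measured by 1 probe, whose place relative to the floxed exons is not given in the sources used here, so it may check nothing about the genotype labels. Controls 1 to 5 read -0.98, -0.66, -1.0, -0.62 and -0.80 for Met, and knockouts 1 to 5 read -0.57, -0.59, -0.53, -0.55 and 0.28. Every knockout lay above every control, the opposite of a loss of transcript under the direction taken here, and the difference of 0.42 ± 0.21 was not called (adjusted p = 0.655). Met's difference was 0.17 with the liver in Cy5 and 0.67 with the liver in Cy3. Without knockout 5 the difference was 0.25. The mice are called knockouts here because their labels say so.

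**Figure D1:**
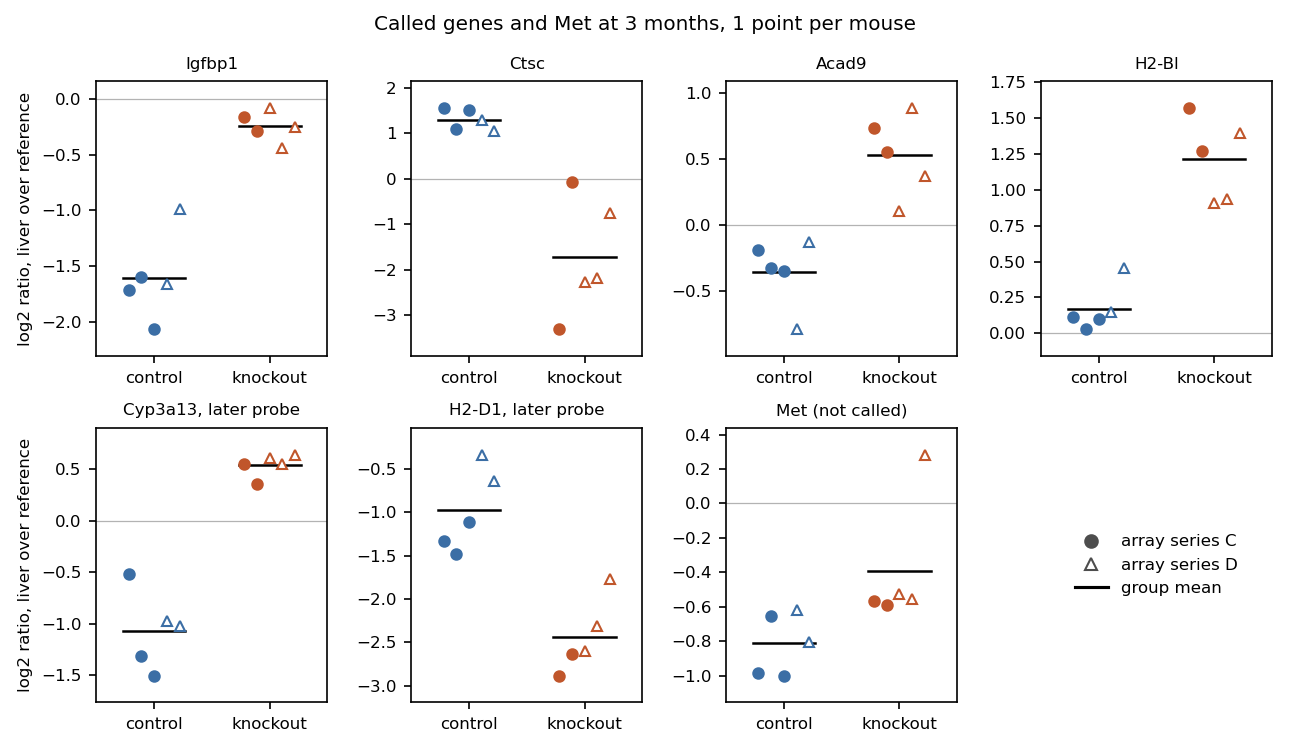
Log2 ratio of liver over reference (vertical axis) in each control and knockout mouse at 3 months, for the 6 called genes and for Met. Filled circles are mice of array series C, open triangles mice of series D, and bars are group means. In all 7 panels the 5 knockouts and the 5 controls do not overlap.

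The promoter of Igfbp1 is shown because this gene was called and carries a known insulin response element. G6pc, which was not called, is shown because it shares the regulator and the direction, a choice made with its values known. Each is the 250 bases before the gene's start, from RefSeq with GRCm38.p6, 5′ to 3′ on the coding strand, with matches to CAAAACA or CAAAATA on either strand in capitals. Igfbp1 lies at chr11:7197537-7197786 on the plus strand and G6pc at chr11:101367466-101367715 on the plus strand.
Igfbp1: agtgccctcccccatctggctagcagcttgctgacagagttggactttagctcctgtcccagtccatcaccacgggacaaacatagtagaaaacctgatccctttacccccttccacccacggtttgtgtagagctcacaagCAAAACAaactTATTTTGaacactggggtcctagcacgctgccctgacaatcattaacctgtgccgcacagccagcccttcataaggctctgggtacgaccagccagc
G6pc: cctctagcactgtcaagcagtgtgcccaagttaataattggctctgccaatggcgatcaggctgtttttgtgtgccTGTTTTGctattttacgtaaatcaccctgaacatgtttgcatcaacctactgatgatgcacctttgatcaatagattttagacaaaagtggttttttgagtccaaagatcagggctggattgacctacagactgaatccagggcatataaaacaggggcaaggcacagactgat
Counted from the start, the matches begin at -108 and -97 in Igfbp1, and the single match in G6pc begins at -174. CAAAACA occurs in 5.56% and CAAAATA in 3.95% of 32851 such windows, either strand counted. The Foxo1 window held neither. These matches describe the sequence only.

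Igfbp1, a secreted binding protein of insulin-like growth factors that insulin represses, read -1.71, -1.60, -2.07, -1.67 and -0.98 in controls 1 to 5. In knockouts 1 to 5 it read -0.16, -0.28, -0.08, -0.44 and -0.25. The groups did not overlap, and the knockouts lay near the reference while the controls lay well below it. The 5 knockouts spanned a narrower range than the controls. Igfbp1 rose by 1.36 ± 0.22 (2.57-fold, adjusted p = 0.0482), by 1.51 with the liver in Cy5 and 1.22 with it in Cy3. The difference was 1.57 in array series C and 1.07 in series D, which are runs of consecutive experiment numbers in the labels. Series C holds 3 controls and 2 knockouts, and series D 2 controls and 3 knockouts. A value within a series thus rests on few mice. G6pc, the glucose-6-phosphatase that releases glucose from liver cells, read -0.81, -1.09, -0.94, -0.71 and -0.76 in controls and -0.22, -0.45, 0.31, -0.07 and -0.13 in knockouts. The groups did not overlap, which held for 0.411% of genes in that direction, but its difference of 0.75 ± 0.23 was not called (adjusted p = 0.303). Foxo1 itself had a difference of 0.33 and overlapping groups. Among 22 measured genes of the insulin and FOXO response, limma called 1 (Igfbp1), 3 were higher and 0 lower at an unadjusted p under 0.05, where 2.29% of all 17501 genes were higher and 6.07% lower. Of the 22, 12 had a positive and 10 a negative difference. The list's median difference was 0.03, beside -0.03 over all genes, and its sign was not stable. It was 0.02 with the liver in Cy5 and -0.08 with it in Cy3, -0.03 in series C and 0.09 in series D.

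Ctsc encodes cathepsin C, a lysosomal dipeptidyl peptidase that activates the serine proteases of immune cells. It read 1.55, 1.10, 1.51, 1.29 and 1.05 in controls 1 to 5 and -3.31, -0.08, -2.25, -2.18 and -0.76 in knockouts 1 to 5. All controls lay above the reference and all knockouts below it, and the knockouts differed among themselves far more than the controls did. Ctsc had a difference of -3.02 ± 0.51 and so fell (limma adjusted p = 0.0482), with -3.56 in Cy5 and -2.48 in Cy3. A further Ctsc probe also had no overlap but a smaller difference of -0.72, and it was not called. Ctse, an intracellular aspartic protease, read 0.98, 0.56, 0.54, 0.30 and -0.28 in controls and -2.65, -2.67, -1.17, -1.12 and 0.15 in knockouts. Knockout 5 lay among the controls for Ctse, and its difference of -1.91 was not called (adjusted p = 0.120). That difference was -3.35 in array series C and -0.72 in series D. Ctsh, another lysosomal cysteine protease, had no overlap between groups at -0.43, not called. Across 18 cathepsins and cystatins the median difference was -0.01, with 1 called, 1 higher and 3 lower at an unadjusted p under 0.05. Of all genes, 2.29% were higher and 6.07% lower at that threshold.

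Acad9 is a mitochondrial acyl-CoA dehydrogenase and an assembly factor of respiratory complex I. It read -0.19, -0.33, -0.35, -0.79 and -0.13 in controls and 0.73, 0.55, 0.11, 0.89 and 0.37 in knockouts. No knockout fell below the reference and no control lay above it. Acad9 rose by 0.89 ± 0.15 (adjusted p = 0.0482), by 0.85 in Cy5 and 0.93 in Cy3, the closest pair of orientation values among the 6 called genes. Its further probe read 0.22 with overlapping groups. Of 13 complex I assembly factors measured, 11 had a negative difference, beside 9629 of all 17501 genes. Acad9 was the 1 called, and the list's median was -0.14. The median was -0.06 in series C and -0.26 in series D, and lay between -0.20 and -0.05 when each mouse was left out. Tmem126b at -0.33 and Ndufaf4 at -0.43 had the next smallest p and were not called.

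Cyp3a13, a cytochrome P450 of the drug-metabolising 3A family, was called through a later probe. That probe read -0.52, -1.32, -1.51, -0.98 and -1.02 in controls and 0.55, 0.36, 0.61, 0.55 and 0.64 in knockouts. The groups lay on opposite sides of the reference, and the knockouts were closer together than the controls. The probe rose by 1.61 ± 0.22, the smallest p of all probes. The first-listed probe gave 1.37 with overlapping groups (adjusted p = 0.166) and the last probe 0.21. Over 33 measured genes of cytochrome P450 families 1 to 3 the median difference was 0.00, with 3 higher and 1 lower at an unadjusted p under 0.05. The shares over all genes were 2.29% higher and 6.07% lower. Cyp2d22 had the second smallest p of the list, at 0.56 ± 0.17, and was not called.

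Class I histocompatibility genes gave a rise and a fall. H2-Bl read 0.11, 0.03, 0.10, 0.15 and 0.45 in controls and 1.57, 1.27, 0.91, 0.93 and 1.39 in knockouts, without overlap. H2-Bl rose by 1.05 ± 0.18 (adjusted p = 0.0482), by 0.98 in Cy5 and 1.11 in Cy3. H2-D1 fell by 1.46 ± 0.24 through a later probe, from -1.33, -1.48, -1.11, -0.33 and -0.64 in controls to -2.89, -2.63, -2.60, -2.31 and -1.76 in knockouts. The first-listed H2-D1 probe gave 0.09 with overlapping groups. Class I genes are near-identical copies that vary between strains, so a probe may read several of them or bind one allele better, and the strain labels differ between the groups. The part of strain was not tested. Over 20 genes of class I and peptide loading the median was 0.11, with H2-Bl as the 1 called.

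Class II genes, which present antigen on macrophages, dendritic cells and B cells, had the lowest median of all 55 lists. Of 11 measured, 10 had a negative difference, the median was -0.46, and limma called 0, with 3 lower and 0 higher at an unadjusted p under 0.05. A negative difference was held by 9629 of all 17501 genes, with 6.07% lower and 2.29% higher at that threshold. H2-Ab1, the class II beta chain, read 1.10, 0.75, 2.25, 1.29 and 1.83 in controls and 0.50, 0.71, 0.70, 0.70 and -0.34 in knockouts. Its 3 probes gave -0.99, -0.70 and -0.88, and the groups overlapped in the probe with -0.70 alone. H2-Aa, the alpha chain, read 1.40, 1.46, 2.90, 1.97 and 1.89 in controls and 0.62, 1.08, 1.13, 0.90 and 0.20 in knockouts, again without overlap, with a difference of -1.14 (adjusted p = 0.487). Per-mouse medians of the list ran from -0.05 to 1.02 in controls and from -0.08 to 0.46 in knockouts, so the list as a whole overlapped between groups. Its median was -0.42 in array series C and -0.45 in series D. Beside it, the 16 Kupffer cell and macrophage markers had a median difference of -0.08 and per-mouse medians from -0.04 to 0.49 in controls and -0.26 to 0.42 in knockouts. The 10 B and plasma cell markers had a median difference of 0.12. The part of these cells in the class II values was not tested, and in bulk liver fewer cells of a type and less RNA per cell cannot be told apart. Lyz2, a macrophage lysozyme, had the smallest p of the macrophage list at -1.84, while its 3 further probes gave -0.52, -0.22 and -0.04.

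Pericentral and periportal genes had medians of opposite sign. The 22 pericentral and Wnt-target genes had a median difference of 0.17, the second highest of the 55 lists, with 4 higher and 0 lower at an unadjusted p under 0.05 and 0 called. Per mouse, the list's median was -0.10 to 0.22 in controls and 0.19 to 0.45 in knockouts. The 14 periportal genes had a median of -0.21, with 0 higher and 4 lower. Of these 4, Ctsc was called, which is also the 1 called gene of the cathepsin list. Over all genes, 2.29% were higher and 6.07% lower at an unadjusted p under 0.05. Per mouse, the periportal median was 0.25 to 0.47 in controls and 0.01 to 0.42 in knockouts, with knockout 1 at 0.42 among the controls. Against the medians, 6 of the 22 pericentral genes had a negative difference and 4 of the 14 periportal genes a positive one. At 5 months, in other mice, the median was 0.17 for the pericentral and 0.21 for the periportal list. Rhbg, an ammonium transporter of pericentral hepatocytes, read 0.01, -0.04, -0.06, 0.33 and 0.06 in controls and 0.37, 0.72, 0.64, 0.66 and 0.97 in knockouts. The groups did not overlap, and the difference of 0.61 ± 0.13 was 0.60 in Cy5 and 0.63 in Cy3 (adjusted p = 0.112). Oat, the ornithine aminotransferase of the same zone, had 0.77 ± 0.20, with 1 knockout inside the control range. Gulo, the last enzyme of vitamin C synthesis, had 0.52 ± 0.16.

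Ahr, the aryl hydrocarbon receptor, shows how far 1 mouse can carry a value. Knockouts 1 to 4 read between 0.40 and 0.92 and knockout 5 read 2.97, against controls from -0.34 to 0.96. Its difference was 0.30 in series C and 1.76 in series D, the series that holds knockout 5. On the periportal side, the mitochondrial aldehyde dehydrogenase gene Aldh1b1 had -0.64, Cyp2f2 had -0.49 and Uox, which encodes urate oxidase, had -0.48, all with overlapping groups and not called. The pericentral median was 0.21 in series C and 0.19 in series D, and the periportal median was -0.17 and -0.16. Both lists kept their sign in both dye orientations, at 0.26 and 0.10 for the pericentral and -0.13 and -0.28 for the periportal genes. Lgr4, a receptor for R-spondins that strengthens Wnt signals, read 0.11, -0.17, -0.27, 0.06 and -0.44 in controls and -1.76, -1.51, -1.01, -1.07 and -0.53 in knockouts. The groups did not overlap, and its difference of -1.04 ± 0.19 missed the threshold (adjusted p = 0.0690). Over 28 Wnt and R-spondin receptors and ligands, 0 were higher and 2 lower at an unadjusted p under 0.05. The shares over all genes were 2.29% higher and 6.07% lower. The list's median was -0.09. That median changed sign between orientations, at 0.04 in Cy5 and -0.21 in Cy3.

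**Figure D2:**
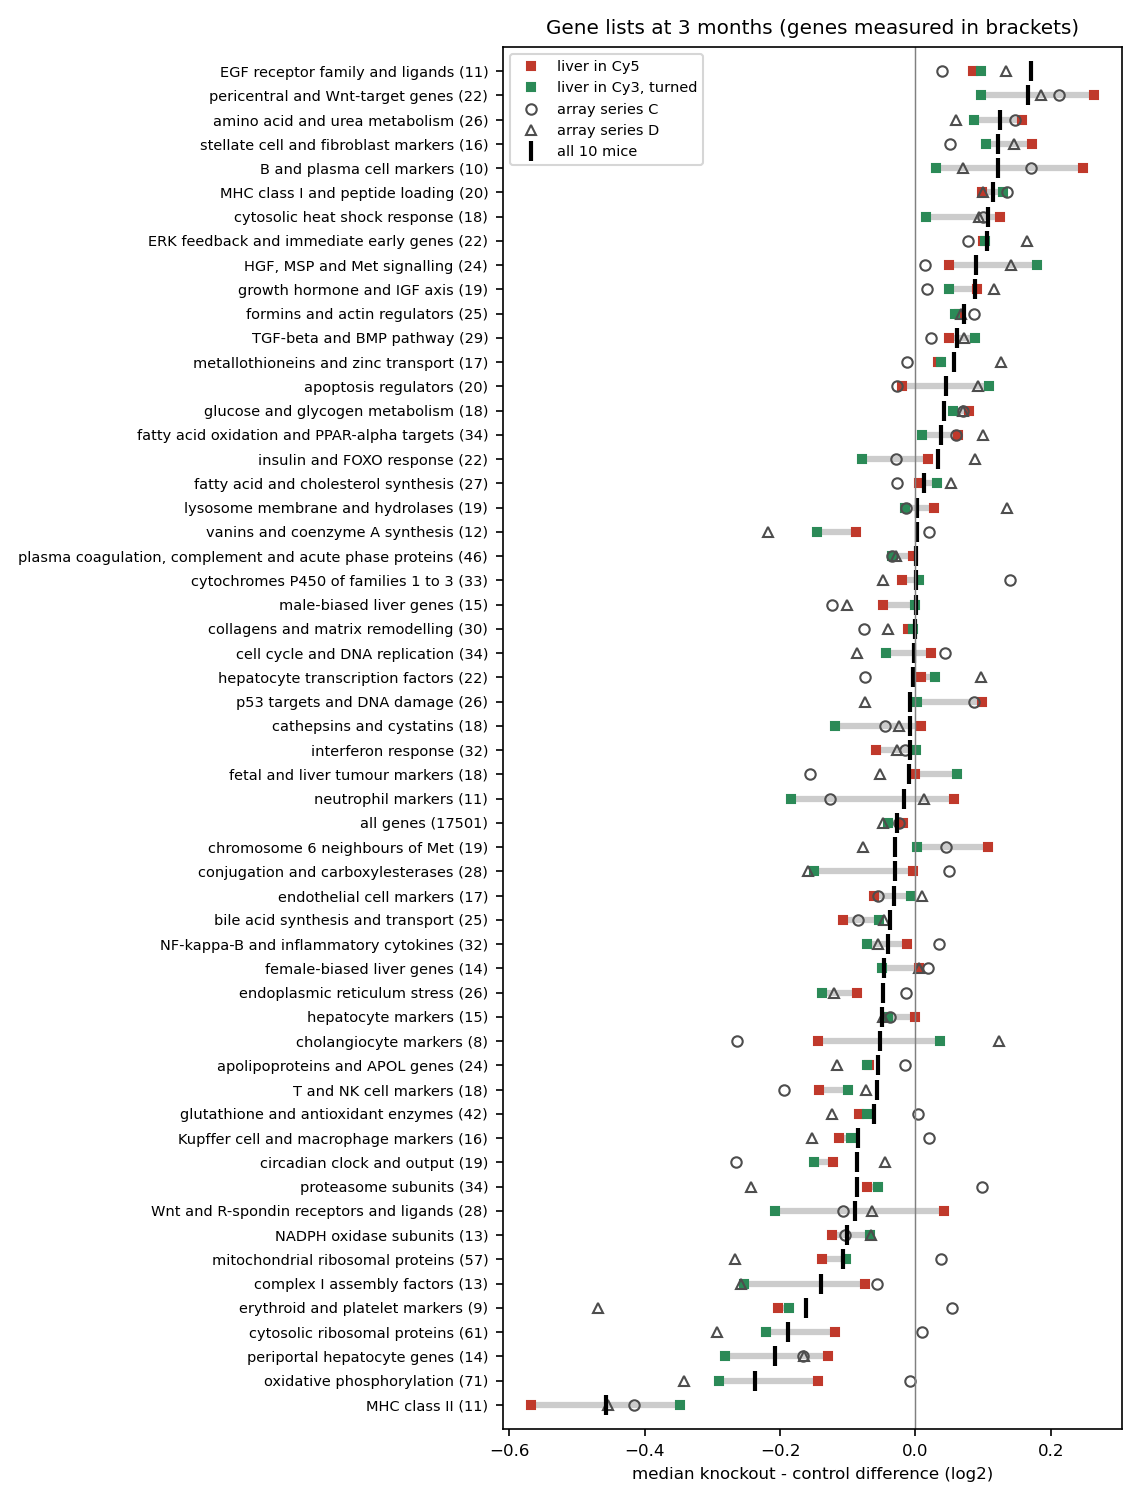
Median knockout minus control difference on the log2 scale (horizontal axis) of 55 gene lists and of all 17501 genes, with the number of genes measured in brackets. Black ticks use all 10 mice, squares use the arrays of 1 dye orientation, circles array series C and triangles series D. MHC class II lies lowest at -0.46, and oxidative phosphorylation and cytosolic ribosomal proteins lie at -0.01 and 0.01 in series C and at -0.34 and -0.29 in series D.

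Genes of oxidative phosphorylation were mostly on the negative side. Of 71 measured, 64 had a negative difference, 54 of them in both dye orientations. Limma called 0, with 7 lower and 0 higher at an unadjusted p under 0.05. Over all 17501 genes, 9629 had a negative difference, 5858 of them in both orientations. At that threshold 6.07% of all genes were lower and 2.29% higher. The list's median was -0.24. All 5 complexes shared the sign, with medians of -0.18 over 33 subunits of complex I, -0.27 over 4 of complex II, -0.26 over 9 of complex III, -0.27 over 10 of complex IV and -0.19 over 14 of ATP synthase. Cox7b, a complex IV subunit, had -0.55 ± 0.21. The 61 cytosolic ribosomal proteins had a median of -0.19, with 52 negative, and 6 lower and 1 higher at an unadjusted p under 0.05. Both lists differed by array series. The oxidative phosphorylation median was -0.01 in series C and -0.34 in series D, and the ribosomal median was 0.01 and -0.29. Control 5, 1 of the 2 controls of series D, had the highest median of all 10 mice in both lists, at 0.80 and 0.66. When each mouse was left out in turn, the medians lay between -0.29 and -0.17 for oxidative phosphorylation and between -0.25 and -0.11 for ribosomal proteins.

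The circadian clock of the liver is a feedback loop in which BMAL1 (Arntl) with CLOCK drives E-box genes such as Nr1d1, Dbp and Tef, and the product of Nr1d1, REV-ERB alpha, represses Arntl and Nfil3. Of 19 measured clock and output genes, limma called 0, with 1 higher and 3 lower at an unadjusted p under 0.05. Over all genes, 2.29% were higher and 6.07% lower at that threshold. The list's median was -0.09. That median was -0.27 in array series C and -0.04 in series D, and lay between -0.23 and -0.05 when each mouse was left out in turn. The time of day at which livers were taken is not given in the sources used here, and its part was not tested. Tef has 2 starts in RefSeq, and the 250 bases before one of them (GRCm38.p6, chr15:81811164-81811413, plus strand) are shown as an example of the E-box, CACGTG, in capitals.
Tef: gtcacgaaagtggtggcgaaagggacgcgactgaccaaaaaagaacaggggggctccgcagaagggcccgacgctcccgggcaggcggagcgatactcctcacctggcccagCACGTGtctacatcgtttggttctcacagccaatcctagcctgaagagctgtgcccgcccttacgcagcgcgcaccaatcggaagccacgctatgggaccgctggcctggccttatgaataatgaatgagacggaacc
The match begins at -138 from the start. CACGTG, which reads the same on both strands, occurs in 6.02% of such windows, and the windows of Nr1d1, Dbp, Nfil3 and Arntl held neither it nor the D-box TTATGTAA.

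Nr1d1 read 0.71, 0.59, 0.42, 0.60 and -0.36 in controls 1 to 5 and -0.54, -0.42, -0.52, -0.25 and -0.36 in knockouts 1 to 5. All controls but control 5 lay above all knockouts, and control 5 lay among them. The difference was -0.81 ± 0.18 (adjusted p = 0.130), a further Nr1d1 probe gave -0.53 and the last gave 0.27. Dbp, an activator at D-box sites, read -1.24, -1.84, -2.47, -1.37 and -3.13 in controls and -4.08, -4.03, -3.43, -3.55 and -2.97 in knockouts. Control 5 was again the control nearest the knockouts, and knockout 5 the knockout nearest the controls. The Dbp difference was -1.60 ± 0.41 (adjusted p = 0.207), at -2.21 in series C and -1.06 in series D.

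Tef, a close relative of Dbp, had -0.70 ± 0.21, but its other probes gave -0.03 and -0.10. Nfil3, a repressor at the same D-box sites, had 0.57, with knockout 1 at 2.25 and the other knockouts from 0.65 to 1.00. Arntl, whose values were seen before it was chosen to be named, read 0.76 to 1.35 in controls and 3.03, 1.55, 1.97, 2.02 and 0.55 in knockouts. Knockout 5 lay below every control for Arntl while the other 4 knockouts lay above them, and its difference of 0.74 ± 0.38 was not called.

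**Figure D3:**
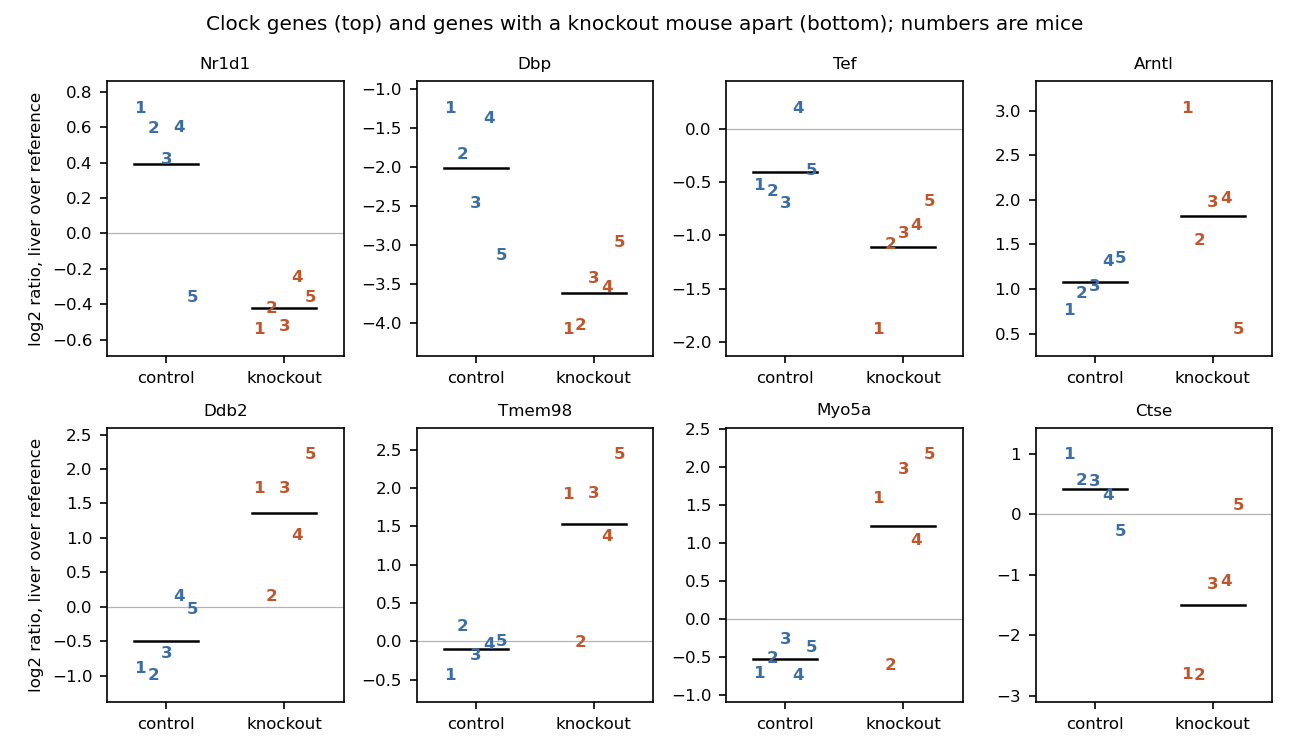
Log2 ratio of liver over reference (vertical axis) for 4 clock genes (top) and 4 genes with a knockout mouse apart from its group (bottom). Each number is the mouse of that number in its group, and bars are group means. Control 5 reads -0.36 for Nr1d1, among the knockouts, and knockout 2 reads 0.15 for Ddb2, -0.01 for Tmem98 and -0.61 for Myo5a, away from the other knockouts.

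Of the other genes with the smallest p in each direction, none was called. Fmn2, a formin that nucleates actin filaments, had 0.98 ± 0.18 (adjusted p = 0.0691), at 1.55 in Cy5 and 0.41 in Cy3. Lrtm1 had 0.92 and a further probe 0.54, and 4930568D16Rik had 1.02. Arhgef19 had 0.96, with 0.95 and 0.96 in the orientations. In all 4 genes the knockouts lay above all controls. D3Ertd751e had 1.30 with overlapping groups and further probes at -0.10 and 0.06.

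Ddb2, Tmem98 and Myo5a shared a pattern over the mice. Ddb2, a DNA-damage recognition protein of nucleotide excision repair and a p53 target, read -0.89, -1.0, -0.68, 0.15 and -0.04 in controls and 1.72, 0.15, 1.71, 1.04 and 2.21 in knockouts. Tmem98 read 1.91, -0.01, 1.93, 1.36 and 2.44 in knockouts and -0.45 to 0.20 in controls. Myo5a, a motor that moves vesicles along actin, read -0.61 in knockout 2, 1.04 to 2.17 in the other knockouts and -0.75 to -0.26 in controls. Knockout 2 lay within the control range for all 3 genes, while the other 4 knockouts lay above all controls. The differences were 1.86 for Ddb2, 1.62 for Tmem98 and 1.75 for Myo5a, with adjusted p from 0.0904 to 0.130. Further probes gave 0.58, -0.18 and 0.32 for Ddb2 and -0.57 and 0.05 for Myo5a, all with overlapping groups. For Myo5a the orientations gave 2.99 and 0.52. The 26 p53 targets and DNA damage genes had a median of -0.01.

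On the lower side, Them7 had -0.64 ± 0.12, Thg1l, a tRNA guanylyltransferase, -0.75, and Csad, the decarboxylase of taurine synthesis, -0.95, each without overlap, which held for 0.971% of genes in that direction. Csad read 0.56, 1.15, 0.78, 1.12 and 0.91 in controls and 0.26, 0.19, -0.42, -0.04 and -0.22 in knockouts. Apol6 had -1.31, with knockout 3 at -0.19 nearest the controls. Myl1, a muscle myosin light chain, had -1.05 and further probes at -0.34 and -0.77. Olfr771, an odorant receptor, had -1.12. Mucl2 at -1.63, Ascl2 at -1.80 and Gm5088 at -1.53 carried dye terms of -1.87, -2.92 and -2.56, explained next, and a further Ascl2 probe gave 0.11. The dye term was also under -1 for Apol6, at -1.12, and for D3Ertd751e, at -1.31.

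For each probe the dye term is the mean of the deposited values over both orientations of the 3-month mice, which would be 0 if the dyes behaved alike. It was under -1 for 8960 probes. Their median difference was -0.26, against 0.01 for the other 27647 probes. Of the 176 probes at an unadjusted p under 0.001, 100 had a dye term under -1, with 3 higher and 97 lower in knockouts, and the 76 others had 30 higher and 46 lower. Most of the lower probes thus had a strong dye term. A dye effect that is the same on every array cancels in these differences, since each mouse has both orientations. The part of dim spots was not tested, since the values used here are ratios without signal. Odorant receptors, which liver is not known to use, had a median of -0.14 over 899 genes, with 11 higher and 109 lower at an unadjusted p under 0.05. Of all genes, 2.29% were higher and 6.07% lower at that threshold. Of the 13 called probes, the 6 with a symbol had dye terms from -0.45 to 0.06, and of the 7 without a symbol 4 had one under -1. Per mouse, the median over probes with a dye term under -1 ran from -0.59 in knockout 5 to 0.27 in control 5.

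**Figure D4:**
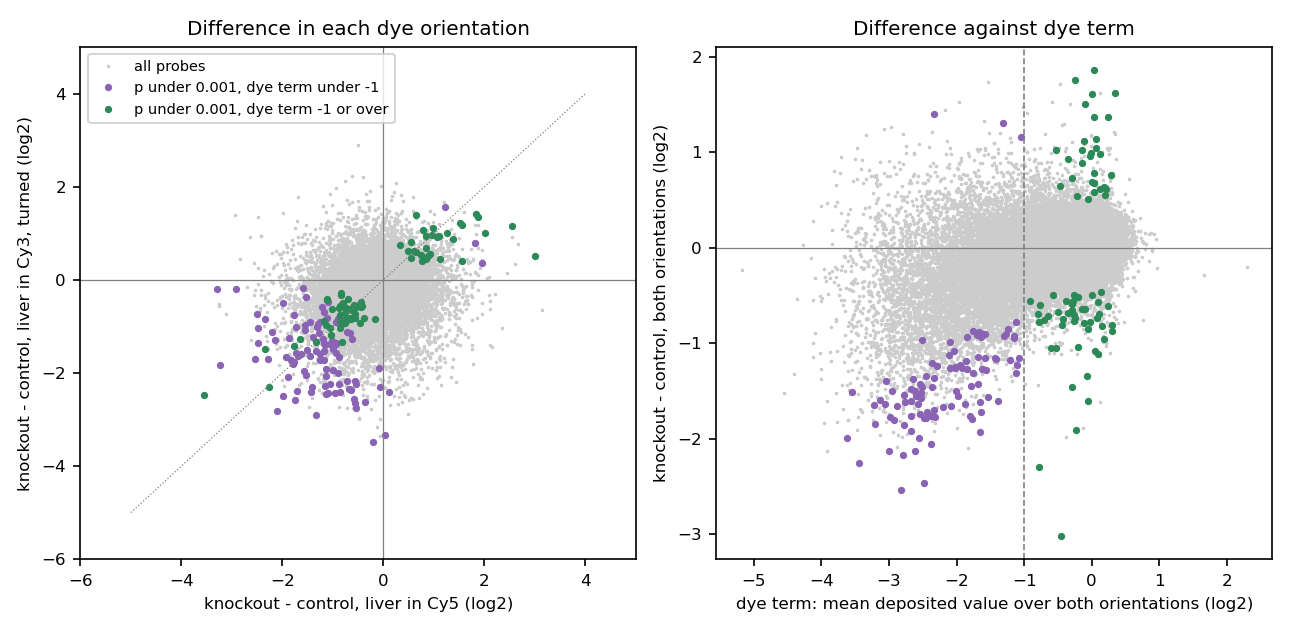
Left, knockout minus control difference of each probe with the liver in Cy5 (horizontal axis) and in Cy3 after turning (vertical axis), log2 scale, with a dotted line of equal values. Right, the difference over both orientations (vertical axis) against the probe's dye term (horizontal axis), with a dashed line at -1. Coloured points are the 176 probes at an unadjusted p under 0.001, of which the 100 purple ones have a dye term under -1 and lie mostly below 0.

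The dye orientations gave the same direction of the genotype difference in 57.2% of all probes, with r = 0.18 across probes, which are not independent replicates. Agreement grew with the size of the difference, to 88.3% of 3872 probes beyond 0.5 and 96.9% of 805 beyond 1, a size that the average of both orientations itself selects for. Ranked by 1 orientation alone, which leaves the other free, the 1000 probes of smallest p had the same direction in the other orientation in 75.1% when ranked by Cy5 and 71.2% when ranked by Cy3. The 176 probes at 0.001 were likewise selected on the average of both orientations, so their agreement is largely set by that selection. Of them, 76 of the 76 with a dye term of -1 or over had the same direction, as had 98 of the 100 under -1. At an unadjusted p under 0.05, selected in the same way, 96.6% of 2915 probes did. Across probes r between orientations was 0.92 in the 76, which hold both signs, and 0.05 in the 100, which are nearly all lower. Limma's test of the difference between orientations called 0 of 36607 probes, with 1332 at an unadjusted p under 0.05 (3.64%). Over all probes both arrays of a mouse correlated at -0.51 to -0.34 after turning. Without turning, limma called 0 and 29 probes passed 0.001.

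By the first-listed probe, 42 genes with a dye term of -1 or over passed 0.001, 17 higher and 25 lower, and 30 of them did not overlap between groups. Over all genes, 0.411% had all knockouts above all controls and 0.971% all below. The 42 were selected by p on the same mice, which itself favours a lack of overlap. For 14 of the 42 genes the array holds 21 further probes, of which 17 had the same direction and 11 of those had an unadjusted p under 0.05. Over all genes, 5338 of 9425 further probes had the same direction and 381 of those passed 0.05. Of the 38 such genes with a dye term under -1, 14 further probes gave 8 of the same direction and 0 at 0.05.

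Ndrg1 and Hsd11b1, named after their values were seen, each had a pair of probes with like values. Ndrg1, a stress-responsive gene named for its repression by N-myc, read 0.78, 1.08, 1.12, 0.69 and 0.70 in controls and 2.45, 2.01, 2.07, 1.96 and 1.48 in knockouts. Its probes gave 1.12 and 1.14, both without overlap between groups (adjusted p = 0.189 and 0.0995). Hsd11b1, which regenerates active glucocorticoid in the liver, had -0.74 and -0.85, also without overlap. St7, a neighbour of Met on chromosome 6, had 0.58 and 0.50 without overlap, and the last probe gave -0.07. At 5 months St7 differed by 0.92 (limma adjusted p = 0.00972). Its list of 19 chromosome 6 neighbours had a median of -0.03.

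Among the remaining lists, antioxidant and glutathione enzymes (42 genes) had -0.06 as their median, with Prdx2, a peroxiredoxin, at 0.54 without overlap (further probes 0.41 and -0.36) and Gsto1, a glutathione transferase, at -0.43 without overlap, neither called. Stellate cell and fibroblast markers had a median of 0.12, with 14 of 16 positive, 8 of them in both dye orientations, and 0 called. Over all genes, 7870 of 17501 were positive. Among the markers, Rgs5 had 0.65, at 1.05 in series C and 0.23 in series D, and Pdgfrb had 0.38. The list's per-mouse medians overlapped, from -0.33 to -0.09 in controls and from -0.26 to 0.12 in knockouts. The 24 genes of HGF, MSP and Met signalling had a median of 0.09 and 22 ERK feedback and immediate early genes 0.10, with 0 called in either. Leaving out 1 mouse lowered these medians to as little as 0.02 and 0.04, and by series the first was 0.01 in C and 0.14 in D. The 34 cell cycle and DNA replication genes had a median of 0.00, and 18 fetal and liver tumour markers -0.01.

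At 5 months, in other mice against the same reference, Igfbp1 differed by 0.98, Ctsc by -1.55, H2-Bl by 1.30 the called Cyp3a13 probe by 0.57 and the called H2-D1 probe by -0.30, in the same direction as at 3 months. H2-Bl passed at both times (adjusted p = 0.00790 at 5 months) and the other 4 did not pass at 5 months. Acad9 differed by -0.07 at 5 months, and limma's test of the change between times called 0 of 36607 probes, Acad9 included (adjusted p = 0.431), with 2835 at an unadjusted p under 0.05 (7.74%). Of the 76 probes with a dye term of -1 or over and p under 0.001 at 3 months, 68.4% had the same direction at 5 months, beside 53.4% of all probes. Oxidative phosphorylation genes had a median of 0.28 and class II genes of 0.35 at 5 months, the opposite sign to 3 months, and those changes of a median were not tested. Other lists were positive at 5 months too, such as cytochromes P450 at 0.44 and Kupffer cell markers at 0.37. The median was 0.02 over all genes and -0.12 for fatty acid oxidation. All 5-month values include the Cy5 array of control 4, which correlated at -0.61 to -0.48 with the Cy5 arrays of 3 months. Without that array, limma's test of the change between times again called 0 probes. The part of the array in the 5-month differences and medians given here was not tested.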

How the data were processed

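Liver RNA was hybridised against a pooled wild-type liver reference on 2-colour arrays, both dye orientations for each of the 10 mice at 3 months. Per the labels and design text, the authors excluded invalid features and brought arrays to the 50th percentile of signal. They deposited log2 ratios for 36607 probes, whose scale was inferred from the values. No source used here names the numerator or the background correction. Array medians were not 0 (-0.65 to -0.34 with the liver in Cy5, -0.38 to -0.17 with it in Cy3).

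Arrays with the liver in Cy3 were multiplied by -1 and both arrays of a mouse averaged. Probes were fitted with limma 3.58.1 in R 4.3.3 (lmFit, eBayes) on all 20 mice in 4 groups, contrast 3-month knockout minus control, with Benjamini-Hochberg adjustment over all probes. The 2 mice of 5 months with 1 array had a mean dye effect subtracted, and act here through the shared spread only. The fit was tested on simulated data with independent normal noise. Those data held no dye effect, array series or link between probes, so that test does not cover these. Symbols come from GEO's platform annotation updated by gene identifier. Of the probes, 26926 carry 1 symbol, 203 several and 9478 none, and a gene's value is its first-listed probe.

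Named genes are each called probe with a symbol, the 12 higher and 12 lower genes of smallest p with both orientations alike, up to 4 of smallest p per list, and Met. Exceptions are marked. Members and lists were chosen with earlier results of these data known. The precision is limited by the number of arrays. Alternatives changed the mice fitted, normalisation, orientation, array series, probes and each mouse in turn.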

Additional observations from a re-analysis of the deposited data

Results flagged for a closer look

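Of 106 groups of 5 mice (53 named genes, knockouts and controls), 10 held a mouse whose gap to the nearest other exceeded 0.71 of the group's range, Dixon's 95% limit. Chance alone flags about 1 group in 20. Knockout 5 stood apart for Met at 0.28 (others -0.59 to -0.53), for Arhgef19 at 1.43 (0.81 to 0.98), for Ahr at 2.97 (0.40 to 0.92) and for H2-Ab1 at -0.34 (0.50 to 0.71). Knockout 3 stood apart for Apol6 at -0.19 (-1.11 to -0.91), knockout 1 for Nfil3 at 2.25 (0.65 to 1.00) and knockout 2 for Cyp2d22 at 0.27 (0.72 to 0.85). Among controls, control 5 stood apart for Nr1d1 at -0.36 (0.42 to 0.71), control 1 for Myl1 at -0.42 (0.37 to 0.57) and control 4 for Cox7b at 0.20 (0.77 to 0.89).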

How the results depend on the processing

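All 13 called probes kept their direction and an unadjusted p under 0.05 under each of the 24 alternatives that keep all probes, except without turning (10 kept direction, 2 passed 0.05) and with the liver in Cy3 alone (11 passed 0.05). The number called moved widely. It was 0 with the 10 mice alone, within array series C or D, without turning and by an ordinary 2-sample t-test on the 10 mice. That t-test takes each probe's spread alone, and is not the random variance model of the series text. Limma on the 10 mice alone is the fit here nearest to that model. The number called was 27 with array series as a covariate, 23 without the 2 mice of 1 array, and 2 with the liver in Cy5 only or in Cy3 only. It was 1 with quantile normalization, with the mean over a gene's probes, and with probes of a dye term of -1 or over (chosen after the data were seen). It was also 1 with the Cy5 array of 5-month control 4 left out or turned. That array correlated at -0.61 to -0.48 with the Cy5 arrays of 3 months. Leaving out each mouse gave 0 to 16 calls, with 0 without control 2 or knockout 1, and 128 to 228 probes at 0.001. At 0.001 the count was 85 with the 10 mice alone, 53 and 46 within series C and D, and 46 with quantile normalization. It was 29 without turning and 63 by the ordinary t-test. With the mean over probes of a gene it was 84, and with probes of a dye term of -1 or over 76. Quantile normalization also turned the split from 33 higher and 143 lower to 27 higher and 19 lower. The causes were not tested.

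The replicate numbers do not pair the mice. Same-numbered deviations correlated at -0.07 to 0.11, and 1 of 5 numbers correlated best with its own. With a replicate block 0 probes were called and 173 passed 0.001.

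Under 25 alternatives the call held in 15 for Cyp3a13, in 5 for Igfbp1, Ctsc and H2-D1, in 4 for Acad9 and in 3 for H2-Bl. Adjusted p ran from 0.0212 to 0.995 for Igfbp1 and from 0.0128 to 0.978 for Ctsc. Leaving out 1 mouse gave differences of 1.25 to 1.52 for Igfbp1 and -3.43 to -2.62 for Ctsc. Without turning, values reversed to -0.0413 for Acad9, -0.0609 for H2-Bl, -0.14 for Lrtm1, -0.012 for Rhbg, -0.0034 for Arhgef19, 0.0144 for Them7, 0.0783 for Olfr771, 0.39 for Gm5088, 0.77 for Mucl2, 0.0937 for Csad and -0.25 for Met. The tests of orientation and of time called 0 to 1 probes without 1 mouse, the 1 being without control 3 and control 5.

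Of list medians under 5 alternatives each, 267 moved by less than the spread between mice and 8 by more. With the liver in Cy3 only, medians were -0.079 for the insulin and FOXO response, -0.21 for Wnt receptors and ligands, -0.12 for cathepsins, -0.15 for conjugation enzymes and -0.18 for neutrophil markers. With the liver in Cy5 only, they were 0.0427 for Wnt receptors and ligands and 0.10 for p53 targets. The mean over probes gave -0.12 for male-biased genes.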
